A study of Homo sapiens with 372 samples.

Results

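Single A2780 cells kept 48 h in 5 nM paclitaxel are described here in 2 states, suppressed and control-like. The state of each cell was taken from the annotation row that the authors deposited with the expression table. Of the 338 cells in the table, 53 had this treatment, and 25 of them carried the suppressed state and 28 the control-like state (47.2% suppressed, exact Clopper-Pearson 95% interval 33.3 to 61.4%, which covers counting error only). The labels list 65 cells for this treatment, and the share covers only those in the table. The authors dropped cells by low E-values of housekeeping genes. Whether this took cells with the lowest totals was not tested. The states were chosen by a random forest trained on the E-values of untreated cells, of cells with 16 h of celecoxib and of cells with both drugs. The expression values of the same 53 cells thus selected the members, and every difference between the states below is a description without a test.

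The series holds 6 conditions of A2780, an established human ovarian cancer cell line. They are untreated cells, paclitaxel at 5 nM for 16 or 48 h, celecoxib at 75 µM for 2 or 16 h, and both drugs together for 16 h. No replicate culture or capture run is named within a condition, so that a condition counts as 1 sample and its cells are not replicates. Beside the 53 cells, 46 untreated cells serve as background, and the suppressed and control-like cells of 16 h of paclitaxel (31 and 23 cells) and of 2 h of celecoxib (33 and 26 cells) are used for comparison. Of the 46 untreated cells 45 carried the control-like state and 1 the suppressed state, and all 46 are kept in the background. All cells share the line, and the labels name no genetic change in any of them. The line is 1 transformed cell type without tumour stroma, which limits it as a model of a tumour.

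Paclitaxel binds β-tubulin within microtubules and stabilizes them, which disturbs the mitotic spindle and holds dividing cells at the spindle checkpoint. Cells that leave such a mitosis without dividing may stop in the next G1 phase, with p53 inducing the kinase inhibitor p21. Proliferating cells make the proteins of DNA replication in S phase and those of the spindle in G2 and M phase.

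The authors deposited E-values. These are log2(N/10 + 1) of a quantity N, the TPM (a share of all transcripts in the library) after normalization to spike-in RNA that went into every well in equal amount. A cell with less RNA relative to the spike-in therefore has lower E-values throughout. Values are given on 2 scales for that reason. The deposited scale keeps the spike-in normalization, and on the second scale N was multiplied in every cell so that all cells had the same total. A gene was called higher or lower when the mean E of the suppressed cells differed from that of the control-like cells by over 1.5-fold (0.58 on the log2 scale), among genes detected (E above 0) in over 30% of the 53 cells.

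Read depth is unknown for these libraries, and the genes detected stand in for it. Suppressed cells had a median of 5871 genes (4751 to 7172) and control-like cells 6572 (5741 to 7854), against 6642 in the untreated cells that carried the control-like state. The wells of all 53 cells were noted as holding 1 cell. The labels give each library an S-number without saying what it is. Cut into blocks of 96 numbers, which is an assumption made here, 22 of the cells lay in block 2 and 31 in block 4, the latter also that of the untreated cells. Suppressed cells were 13 of 22 cells in block 2 (59.1%, 36.4 to 79.3%) and 12 of 31 in block 4 (38.7%, 21.9 to 57.8%). No pair of the 53 cells had identical values, and the highest correlation of a pair was 0.79. Of the epithelial markers 1 of 10 was among the genes listed (KRT18, detected in 14 of the 53 cells), of the fibroblast markers 3 of 8, of the immune markers 1 of 8 and of the endothelial markers 0 of 4, so that other cell types could be checked only in part. COL3A1, the fibroblast marker in most cells, had a mean E of 1.52 in suppressed and 1.85 in control-like cells.

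The transcript total, a sum of the values from which the states were called, was lower in suppressed cells. On the log2 scale with the untreated median at 0, the total of suppressed cells ran from −1.94 to −0.49 with a median of −1.07. Control-like cells ran from −0.82 to 0.16 with a median of −0.34. The suppressed median was thus 2.09-fold and the control-like median 1.27-fold under the untreated one, and the states differed by −0.72 between medians (1.65-fold), against an SD over cells within states of 0.30. Of the suppressed cells 22 of 25 lay under the lowest control-like cell, and 16 of 28 control-like cells lay above the highest suppressed cell. The ranges overlapped for 3 suppressed and 12 control-like cells.

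The same order was seen within each block. In block 2 the median total was −1.28 in 13 suppressed and −0.44 in 9 control-like cells, and in block 4 −0.97 in 12 and −0.34 in 19 cells. Genes detected moved with the total. Their medians in block 2 were 5992 and 6904, and in block 4 5846 and 6481. Across cells within a state, total and genes detected had a Pearson's r of 0.50 and a Spearman's rho of 0.45 in the 25 suppressed cells and of 0.51 and 0.55 in the 28 control-like cells, a description of cells of 1 condition. Whether a low total reflects less RNA in the cell or less of it captured was not tested.

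**Figure D1:**
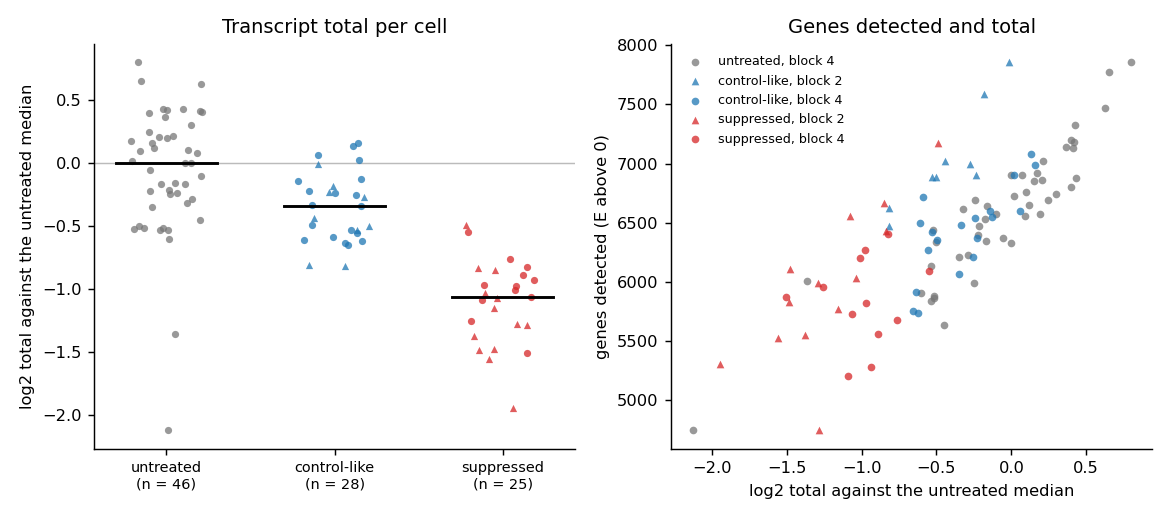
Left, transcript total per cell on the log2 scale against the untreated median for untreated, control-like and suppressed cells (points, cells; bars, medians; triangles, block 2; circles, block 4). Right, genes detected against the same total, where suppressed cells lie at the lower left and only 15 of the 53 cells lie in the range of totals that both states hold.

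On the deposited scale nearly all differences were downward. Of 8743 genes past the detection limit, 3311 were lower in suppressed cells (37.9%) and 24 higher (0.275%), with a median difference of −0.43 over all genes. At the same total 827 genes were lower (9.46%) and 183 higher (2.09%), and the median was −0.08. All 827 genes lower at the same total were also lower on the deposited scale, and all 24 genes higher on the deposited scale were also higher at the same total. No gene had ranges over cells that did not overlap between the states on either scale (0 of 8743 on both). The difference at the same total was larger than the SD over cells within states for 16 of the lower and 3 of the higher genes. The direction of a call was the same in both blocks for 782 of the lower and 166 of the higher genes, and 330 and 45 passed the limit in both blocks.

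These counts depend on how cells are summarized. Suppressed cells detected the median gene in 64% of cells and control-like cells in 75%, and 79.4% of genes had the larger SD over cells in the suppressed state. A ratio of linear means at the same total gave 1108 genes lower and 1616 higher, so that 59.3% of the calls were higher in place of 18.1%. Averaging only over the cells that detect a gene gave 256 lower and 923 higher (78.3% higher). Among the 3 suppressed and 12 control-like cells in the shared range of totals, 1610 genes were lower and 1850 higher at the same total. The share of cells in which a gene was found moved with these counts, and its part in them was not tested.

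Differences varied with the level of the gene. The genes were ordered by mean E and cut into 5 bins of like size. The median difference on the deposited scale went from −0.09 in bin 1, the lowest, to −0.84 in bin 5. At the same total it went from 0.01 in bin 1 to −0.19 in bin 4 and −0.16 in bin 5. The share of genes lower at the same total was 0.572% in bin 1, 17.8% in bin 4 and 13.6% in bin 5.

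**Figure D2:**
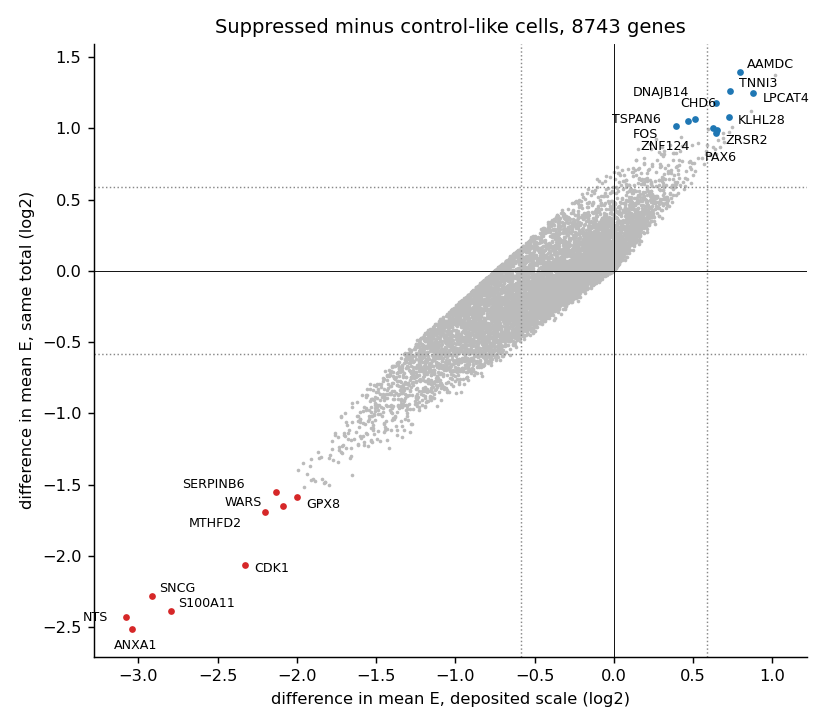
Difference in mean E, suppressed minus control-like, for 8743 genes as deposited (x axis) and at the same total (y axis), both log2. Dotted lines mark 1.5-fold, and the labelled genes are the 8 with the largest differences in each direction on either scale among genes seen in 50% or more of the 53 cells, with ANXA1 at −2.51 and AAMDC at 1.40 at the same total.

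Genes of the cell cycle were lower in suppressed cells on both scales. Of 40 S phase genes, 36 were lower and 0 higher on the deposited scale (median −1.005), and 20 were lower and 0 higher at the same total (median −0.58), where all 40 differences were negative. Of 50 G2/M genes, 32 and 13 were lower on the 2 scales and 0 higher (medians −0.74 and −0.35). The background over all genes was 37.9% lower on the deposited scale and 9.46% lower at the same total. In block 2 the G2/M median was 0.02 and in block 4 −0.54, while the S phase median was −0.72 and −0.60. In the shared range of totals the medians were −0.09 for S phase and 0.08 for G2/M genes.

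CDK1, the kinase that drives entry into mitosis (chr10:60778331-60794852, plus strand), was detected in 6 of 25 suppressed, 21 of 28 control-like and 39 of 46 untreated cells. Its E ran from 0.00 to 7.10 in suppressed cells with a median of 0.00, and from 0.00 to 7.31 in control-like cells with a median of 3.51. The untreated median was 4.05. Suppressed cells were thus mostly at 0, but 1 of them reached nearly the highest control-like cell. The difference in mean E was −2.32 in deposited values and −2.06 with equal totals (−2.42 in block 2 and −1.70 in block 4), and it was −0.34 in the shared range of totals.

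Among S phase genes the largest differences at the same total were those of GMNN, which encodes the licensing inhibitor geminin (−1.40), HELLS, a chromatin remodelling helicase (−1.27), and MCM7, a subunit of the replicative helicase (−1.24). GMNN had a median E of 2.45 in suppressed cells (0.00 to 5.75), 4.43 in control-like cells (0.54 to 6.33) and 5.20 in untreated cells (0.00 to 6.73). Its ranges overlapped widely. NASP, a histone chaperone with the highest mean level of the list, differed by −0.16 at the same total. In G2/M the largest differences after CDK1 were those of UBE2C, a ubiquitin-conjugating enzyme of the anaphase-promoting complex (−1.26, but 0.88 in the shared range of totals), and NUSAP1, a spindle-associated protein (−1.01). CKS2, a CDK-binding subunit and the most abundant member, differed by 0.18 and was detected in all 53 cells. TOP2A, which untangles replicated DNA, was detected in 14 of 25 suppressed and 24 of 28 control-like cells and differed by −0.77 (−0.13 in block 2, −1.16 in block 4). MKI67, the gene of the proliferation antigen Ki-67, was detected in 11 and 17 cells and differed by −0.22.

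The promoters of 5 genes are shown because they belong to cell cycle and stress genes that were lower in suppressed cells and carry letters recognized in such promoters. Each is the 250 bases before the transcript start in RefSeq on GRCh38.p14, read 5′ to 3′ on the strand of the gene. For CDK1 (chr10:60778081-60778330, plus), TOP2A (chr17:40417897-40418146, minus), MCM7 (chr7:100101398-100101647, minus) and HELLS (chr10:94545538-94545787, plus), capitals mark the CHR element of G2/M genes (TTTGAA or TTCGAA), the CCAAT box and E2F sites (TTTGGCGC, TTTCCCGC, TTTCGCGC or TTTGCCGC), on either strand. For ASNS (chr7:97872409-97872658, minus) they mark the composite site bound by ATF4 (TGATGNAA).
CDK1: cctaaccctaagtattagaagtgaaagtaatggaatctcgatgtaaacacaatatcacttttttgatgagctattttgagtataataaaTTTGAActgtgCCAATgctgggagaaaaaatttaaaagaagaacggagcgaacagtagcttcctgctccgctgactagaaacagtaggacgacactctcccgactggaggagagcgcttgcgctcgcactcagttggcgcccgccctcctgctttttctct
TOP2A: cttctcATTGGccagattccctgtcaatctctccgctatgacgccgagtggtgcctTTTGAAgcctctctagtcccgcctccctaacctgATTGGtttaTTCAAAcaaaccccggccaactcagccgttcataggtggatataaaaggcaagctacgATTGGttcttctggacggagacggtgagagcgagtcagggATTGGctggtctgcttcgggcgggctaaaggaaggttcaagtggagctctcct
MCM7: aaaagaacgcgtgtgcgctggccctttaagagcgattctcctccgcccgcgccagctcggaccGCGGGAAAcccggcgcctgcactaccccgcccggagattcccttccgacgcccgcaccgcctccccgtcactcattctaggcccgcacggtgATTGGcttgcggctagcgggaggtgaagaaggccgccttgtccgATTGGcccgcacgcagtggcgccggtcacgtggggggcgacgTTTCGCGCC
HELLS: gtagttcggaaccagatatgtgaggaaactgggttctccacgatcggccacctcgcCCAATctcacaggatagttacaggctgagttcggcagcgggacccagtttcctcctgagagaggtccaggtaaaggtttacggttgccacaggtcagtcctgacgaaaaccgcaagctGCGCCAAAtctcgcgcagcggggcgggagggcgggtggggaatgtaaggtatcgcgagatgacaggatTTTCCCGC
ASNS: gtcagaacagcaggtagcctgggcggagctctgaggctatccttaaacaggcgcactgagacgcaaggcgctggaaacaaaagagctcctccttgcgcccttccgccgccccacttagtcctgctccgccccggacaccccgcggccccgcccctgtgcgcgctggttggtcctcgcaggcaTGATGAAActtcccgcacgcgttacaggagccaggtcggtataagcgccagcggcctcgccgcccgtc
CDK1 had a CHR at 161 and a CCAAT box at 150 bases before the start. TOP2A had 2 CHR elements and 4 CCAAT boxes, 2 of them on each side of the CHR at 151 bases. MCM7 and HELLS had no CHR and 2 E2F sites each, with 1 of them within 9 bases of the start, and the last base shown for MCM7 belongs to a CCAAT box that runs over the start. ASNS had 1 composite site at 68 bases. A match is a description of the letters and not of a bound site.

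Promoters with 50 further bases after the start were searched for all genes. A CHR lay in 32 of 42 G2/M promoters (76.2%), 2 of 32 S phase promoters (6.25%), 11.0% of the tested genes with a promoter and 16.6% of all 27305 promoters. An E2F site lay in 15 of 32 S phase (46.9%) and 3 of 42 G2/M promoters (7.14%), and in 3.33% of all promoters. Among the 697 promoters of genes lower at the same total, 12.3% held a CHR, 37.4% a CCAAT box, 8.61% an E2F site and 2.87% a composite ATF4 site, beside 11.0%, 38.2%, 5.94% and 1.53% of the tested genes with a promoter. For the 152 promoters of higher genes the shares were 10.5%, 38.2%, 5.26% and 1.97%. The CCAAT box lay in 35.7% and the ATF4 site in 3.67% of all promoters.

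The mean E of the 40 S phase genes at the same total gives a level per cell. Its median was 1.301 in suppressed cells (0.72 to 3.38), 2.21 in control-like cells (1.00 to 3.79) and 2.64 in untreated cells (1.19 to 3.18). Of the suppressed cells 9 of 25 lay below all untreated cells and 2 above all of them, and of the control-like cells 4 of 28 and 2. For the G2/M genes the medians were 1.58, 2.14 and 2.84, with 6 of 25 suppressed and 2 of 28 control-like cells below the untreated range. Both states thus held cells with high and with low levels of cell cycle genes. S phase and G2/M levels had a Spearman's rho of 0.89 across the suppressed, 0.62 across the control-like and 0.45 across the untreated cells, which share a library depth that was not removed.

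Genes of the spindle and of tubulin, the target of the drug, were counted as separate lists. With totals made equal, 1 of 12 mitotic kinesins, 4 of 26 genes of the spindle checkpoint and anaphase-promoting complex and 4 of 13 tubulins were lower, and none were higher (0 of these 51 genes). Over all genes 9.46% were lower and 2.09% higher. The shares lower were 4.57%, 17.8% and 13.6% in bins 2, 4 and 5, which hold the median levels of these lists in order. BUB3, a checkpoint protein, differed by −1.14. The abundant TUBA1B and TUBB, the subunits of the microtubule itself, differed by −0.93 and −0.996. TUBA1B had a median E of 6.03 in suppressed cells (0.16 to 8.52) and 8.05 in control-like cells (4.00 to 9.50), with an untreated median of 8.63. The CCT chaperonin and tubulin cofactors had 1 of 19 genes lower (TCP1, −0.72).

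**Figure D3:**
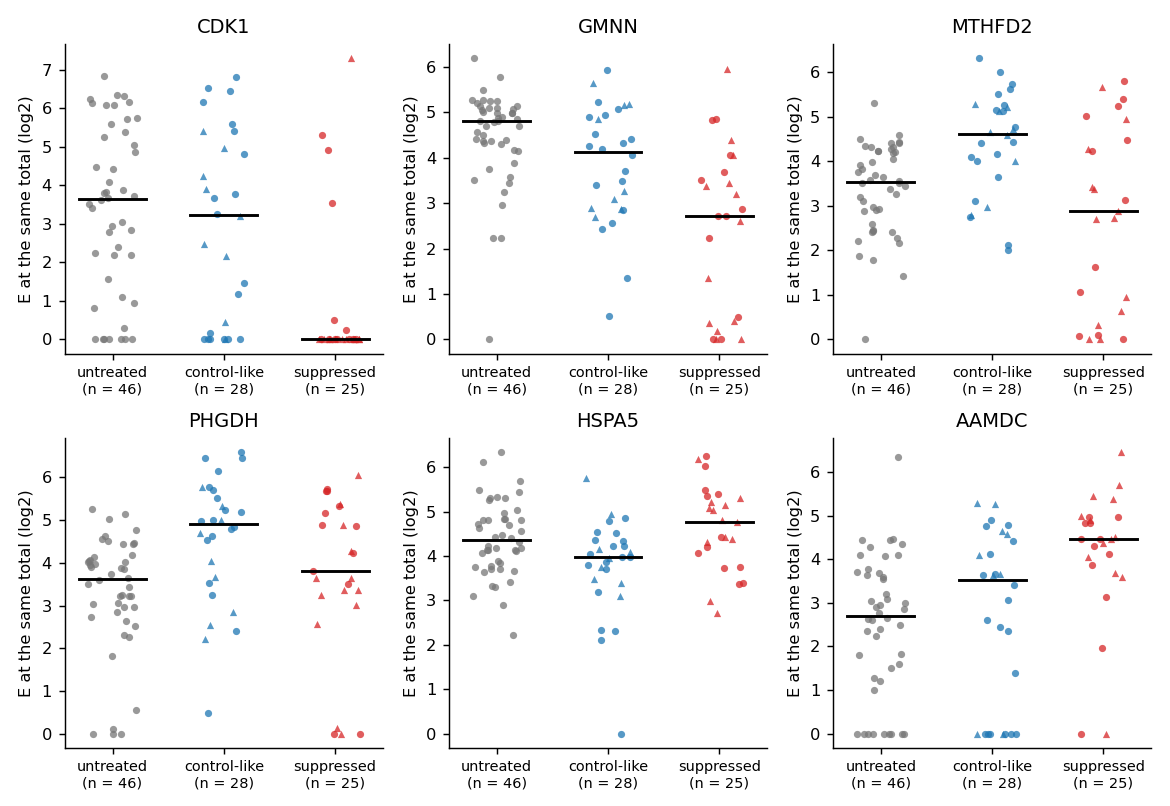
E at the same total in untreated, control-like and suppressed cells for CDK1, GMNN, MTHFD2, PHGDH, HSPA5 and AAMDC (points, cells; bars, medians; triangles, block 2; circles, block 4). Most suppressed cells lie at 0 for CDK1, while HSPA5 and AAMDC have higher medians in suppressed than in control-like cells.

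Genes of the integrated stress response, which ATF4 induces when amino acids or protein folding are disturbed, were lower in suppressed than in control-like cells. At the same total 12 of 29 were lower and 0 higher (median −0.55, −0.35 in block 2 and −0.55 in block 4), and on the deposited scale 22 were lower. Of all genes 9.46% were lower at the same total and 37.9% on the deposited scale. In bin 4, which holds the median level of this list (2.78), the shares were 17.8% and 1023 of 1748. In the shared range of totals, with 3 suppressed cells, the median of the list was 0.25, so that the direction turned there. MTHFD2, a mitochondrial enzyme of one-carbon metabolism (chr2:74186172-74217565, plus strand), had a median E of 2.28 in suppressed cells (0.00 to 5.67) and 4.85 in control-like cells (2.09 to 6.97), and 4.28 in untreated cells. It was at 0 in 3 suppressed cells and in no control-like cell (0 of 28). The difference was −2.20 in the deposited values and −1.69 at the same total, but 0.61 in the shared range of totals, where 3 suppressed cells remain. WARS, tryptophanyl-tRNA synthetase, differed by −1.65, and PSAT1 and PHGDH, enzymes of serine synthesis, by −0.90 and −0.86. ASNS, asparagine synthetase, differed by −0.66 (−0.36 in block 2 and −1.10 in block 4).

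The level per cell of these 29 genes was 1.97 at the median of the suppressed cells, 2.98 in the control-like and 2.12 in the untreated cells. Of the control-like cells 16 of 28 lay above all untreated cells, and of the suppressed cells 6 of 25. Against untreated cells at the same total the list had a median difference of 0.52 in control-like and 0.11 in suppressed cells, 2 values that share the untreated cells.

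The largest differences of the 8743 genes belonged to 4 genes that were high in some cells and near 0 in others. NTS, the precursor of the peptide neurotensin (chr12:85874295-85882992, plus strand), had a median E of 7.03 in suppressed cells (0.00 to 11.44) and 9.26 in control-like cells (3.08 to 11.33), and 8.51 in untreated cells (0.00 to 10.00). It differed by −3.08 in the deposited values and −2.43 at the same total. ANXA1, annexin A1, a calcium-dependent membrane-binding protein (chr9:73151865-73170393, plus strand), had medians of 3.09 in suppressed (0.00 to 9.52), 8.01 in control-like (0.00 to 9.93) and 4.14 in untreated cells (0.00 to 10.53), and differed by −3.04 and −2.51. SNCG, γ-synuclein (chr10:86958599-86963258, plus strand), had medians of 6.55 (0.00 to 8.00), 7.73 (5.76 to 8.92) and 5.28 (0.00 to 8.45), and differed by −2.92 and −2.28. S100A11, a calcium-binding partner of annexins (chr1:152032506-152047907, minus strand), was detected in 10 of 25 suppressed, 22 of 28 control-like and 23 of 46 untreated cells and differed by −2.79 and −2.38. The groups overlapped for all 4 genes, and the suppressed cells fell into a high and a low part.

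The low values of the 4 genes fell in part on the same cells. NTS was under an E of 4, a limit chosen after its values were seen, in 9 of 25 suppressed cells (36.0%, exact 95% interval 18.0 to 57.5%) and 1 of 28 control-like cells (3.57%, 0.0904 to 18.3%). All 9 of these suppressed cells were also under 4 for ANXA1 and at 0 for S100A11, and 8 of them were under 4 for SNCG. Of the other 16 suppressed cells, 9 were under 4 for S100A11, 4 for ANXA1 and 1 for SNCG. The 9 suppressed cells low in NTS were 4 of 13 suppressed cells in block 2 and 5 of 12 in block 4. The other 16 suppressed cells had NTS between 6.36 and 11.44. Cells low in NTS were also found without paclitaxel, in 9 of 46 untreated cells (19.6%). At 16 h of paclitaxel they were 9 of 56 cells, and with both drugs 8 of 59. In celecoxib they were 15 of 63 cells at 2 h and 5 of 61 at 16 h. All 9 untreated cells low in NTS were also under 4 for ANXA1 and S100A11, and 7 of them for SNCG. Among the remaining untreated cells 14, 20 and 8 were under 4 for ANXA1, S100A11 and SNCG. Of the 15 low cells at 2 h of celecoxib, 14, 15 and 12 were under 4 for these genes. Joint low values were thus not particular to the suppressed cells.

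The 9 suppressed cells low in NTS did not stand apart in total or depth from the other 16. Their median total was −1.01 against −1.07, and their genes detected 5821 against 5915. CDK1 was detected in 4 of the 9 and in 2 of the 16. Without the 10 cells low in NTS, the difference at the same total was 0.13 for NTS, −0.73 for ANXA1, −0.66 for SNCG and −1.11 for S100A11, while it was −2.55 for CDK1, −1.87 for MTHFD2 and −1.81 for GMNN. Since these cells were picked for low NTS, the loss of its difference is set by that choice, and the other 3 genes were seen to be low in the same cells. The medians without these cells were −0.75 for S phase and −0.71 for G2/M genes. NQO1, a quinone reductase, went from −1.02 to −0.09.

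**Figure D4:**
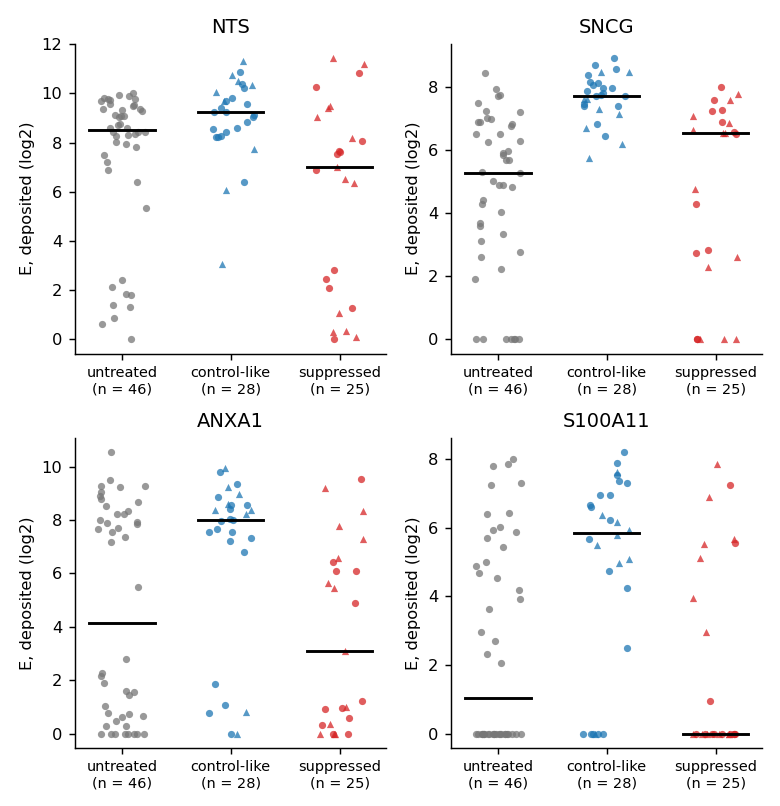
Deposited E of NTS, SNCG, ANXA1 and S100A11 in untreated, control-like and suppressed cells (points, cells; bars, medians; triangles, block 2; circles, block 4). A low group of cells is seen in the untreated and suppressed cells for NTS, with 9 cells under an E of 4 in each, and 1 such control-like cell.

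The lower end of the list was completed by SERPINB6, GPX8 and WARS. SERPINB6, an intracellular protease inhibitor, had a median E of 2.62 in suppressed cells (0.00 to 4.96) and 4.87 in control-like cells (1.65 to 6.45), and differed by −2.13 in the deposited values and −1.55 at the same total. GPX8, a peroxidase of the endoplasmic reticulum, was detected in 14 of 25 and 27 of 28 cells and differed by −1.59 at the same total. The untreated cells held an intermediate GPX8 level, with a median of 2.77 beside 0.19 in suppressed and 3.55 in control-like cells. WARS was detected in 15 and 26 cells.

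By means of E, fewer genes were higher in suppressed cells, and with smaller differences. The balance turned with the summary used. At the same total 59.3% of calls were higher by linear means and 78.3% over the cells that detect the gene. Among genes seen in 50% or more of the cells, AAMDC had the largest such difference at the same total. It was 0.79 in the deposited values and 1.40 at the same total (0.96 in block 2 and 1.43 in block 4). Its median E was 3.90 in suppressed cells (0.00 to 5.82), 3.77 in control-like cells (0.00 to 5.71) and 3.23 in untreated cells (0.00 to 4.92), and it was detected in 23 of 25, 20 of 28 and 37 of 46 cells. Its medians hardly differed on the deposited scale, where the higher mean went with fewer suppressed cells at 0. At the same total the medians were 4.46 in suppressed and 3.53 in control-like cells. TNNI3, cardiac troponin I, followed with 1.26 at the same total, and LPCAT4, a lysophospholipid acyltransferase, with 1.25. LPCAT4 had a median E of 2.03 in suppressed and 0.37 in control-like cells, with both ranges starting at 0.00.

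Other genes of the upper end were DNAJB14, a cochaperone of the endoplasmic reticulum membrane (1.18), KLHL28, a kelch-like protein (1.08), CHD6, a chromatin remodeller (1.06), TSPAN6, a tetraspanin (1.05), and FOS, the AP-1 subunit induced within minutes of stimulation (1.02). On the deposited scale ZRSR2, a factor of the minor spliceosome (0.65), PAX6, a transcription factor (0.64), and ZNF124, a zinc finger protein (0.62), were among the 8 highest. In block 2 the deposited difference was −0.29 for ZRSR2 and −0.07 for DNAJB14, and in block 4 it was 1.14 and 1.12. FOS differed by 1.70 in block 2, 0.58 in block 4 and −0.45 in the shared range of totals. Against untreated cells at the same total FOS differed by 0.49 in suppressed and −0.53 in control-like cells.

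Chaperones of the endoplasmic reticulum had the highest median of the lists at the same total (0.18, 1 of 19 genes higher and 1 lower), beside −0.08 over all genes. HSPA5, the chaperone BiP, was the higher one, with a difference of 0.86 (0.58 in block 2 and 0.98 in block 4), a median E of 4.11 in suppressed cells (2.29 to 5.91) and 4.40 in control-like cells (0.00 to 6.11), and 0.15 on the deposited scale. SIL1, its nucleotide exchange factor, was the lower one (−0.72). HSP90B1 and PDIA3, also folding proteins of this compartment, differed by 0.30 and 0.57, within the limit. Of 26 lysosome genes 3 were higher and 1 lower, with SCARB2, a lysosomal membrane protein, at 0.84. Cytosolic heat shock proteins had 2 of 16 genes lower and 0 higher, HSPB1 (−0.84) and the HSP90 cochaperone AHSA1 (−0.83). Beside these counts, 9.46% of all genes were lower and 2.09% higher.

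The protein synthesis machinery differed little at the same total where it is most abundant. Its counts stand beside 37.9% of all genes lower on the deposited scale, and 1392 of 1748 in bin 5. At the same total 9.46% of all genes were lower and 2.09% higher. The share lower was 17.8% in bin 4, which holds the median level of the nucleolar list, and 13.6% in bin 5. Cytosolic ribosomal proteins were lower for 77 of 84 genes on the deposited scale (median −0.77), but for 0 of 84 at the same total (median −0.04), with RPS27L, a paralog of RPS27 that p53 induces, higher by 0.64. Of the mitochondrial ribosomal proteins 15 of 77 were lower at the same total and 0 higher (median −0.33), among them MRPS18B (−1.37). Nucleolar genes of ribosome biogenesis were lower for 7 of 29 (median −0.36), with DKC1, the pseudouridine synthase, at −1.04 and POLR1C, a subunit of RNA polymerases I and III, at −1.04. Translation initiation factors had 4 of 47 genes lower and 1 higher, splicing factors 1 of 33 lower, and proteasome subunits 4 of 35 lower. The 12 subunits of RNA polymerase II had a median of 0.03 at the same total (1 lower, POLR2H at −0.87) and −0.68 on the deposited scale.

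For the respiratory chain the deposited scale gave lower calls for 35 of 37 complex I subunits, 22 of 25 subunits of complexes II to IV and 14 of 16 ATP synthase subunits. Over all genes 37.9% were lower on that scale, and in bin 5, the most abundant genes, 1392 of 1748. At the same total 9.46% of all genes were lower. The respiratory lists had 1, 2 and 0 genes lower there, with medians of −0.11, −0.06 and −0.24. NDUFA10, an accessory subunit of complex I, was the 1 lower there (−0.87). Most of the lower calls for oxidative phosphorylation were thus found on the deposited scale alone. Glycolysis had 1 of 18 genes lower (PGAM1, −0.65) and a median of −0.35, and GAPDH and ACTB differed by −0.38 and −0.34 at the same total.

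Lipid synthesis is read against the 60.7% of all genes with a negative difference at the same total and the 9.46% called lower. In bin 3, which holds the median level of both lipid lists, 10.7% were lower. In cholesterol synthesis 4 of 21 were lower and 0 higher (median −0.34), led by IDI1, isopentenyl-diphosphate isomerase (−1.18), EBP, sterol isomerase (−0.91), and FDFT1, squalene synthase (−0.71). In fatty acid synthesis 3 of 14 were lower (median −0.16), among them ACACA, acetyl-CoA carboxylase (−1.02), and FADS1, a desaturase (−0.91). SCD, stearoyl-CoA desaturase, differed by −0.34. Of 18 NRF2 targets 2 were lower, NQO1 (−1.02) and ME1 (−0.79), and of 16 genes of the BCL2 family and mitochondrial apoptosis 4, including BID (−1.16). Of the remaining lists, G1 cyclins, kinases and inhibitors had 3 of 15 genes lower and 1 higher (median −0.19), immediate early genes 2 of 18 lower and 1 higher (0.05), ZNF zinc finger genes 8 of 211 lower and 9 higher (0.01), and housekeeping reference genes 1 of 14 lower and 0 higher (−0.08).

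The p53 targets had a median near 0. At equal totals 0 of 26 were lower and 1 higher, with a median of −0.03, beside 9.46% lower and 2.09% higher among all genes. CDKN1A, which encodes p21, was detected in 15 of 25 suppressed, 21 of 28 control-like and 11 of 46 untreated cells. Its median E was 1.42 in suppressed cells (0.00 to 6.64), 3.46 in control-like cells (0.00 to 7.20) and 0.00 in untreated cells (0.00 to 8.75). The difference at the same total was −0.52, with 0.36 in block 2, −1.14 in block 4 and 0.31 without the 10 cells low in NTS. GDF15, a stress-induced cytokine, was detected in 17, 21 and 8 cells and differed by −0.14, or 0.66 without the same 10 cells. Against untreated cells at the same total CDKN1A differed by 1.68 in suppressed and 2.20 in control-like cells, and GDF15 by 2.72 and 2.86. These pairs of values share the untreated cells.

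Interferon and inflammation genes had 3 of 25 lower and 1 higher at the same total (median −0.14). The shares over all genes were 9.46% lower and 2.09% higher. IFITM1, an antiviral membrane protein, differed by −0.41 between the states and by 2.57 and 2.99 from untreated cells, and IFITM2 by −0.70, with −1.25 in block 2 and −0.15 in block 4. IFI35 differed by −0.89 and IFI6 by 0.77. S100A4, a calcium-binding protein of motile cells, differed by −0.58, and the remaining genes that the study named for inflammation, IFNAR2, SERPINF1 and TNFRSF1A, by −0.49, −0.35 and −0.29. Of all 15 genes that the study named and that were tested, 6 were lower and 0 higher at the same total (median −0.52), and they too were picked on these cells.

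The study chose a module of 73 genes and a set of 28 oxidation-reduction genes. Both came from genes raised in the control-like cells at 48 h against untreated cells. That choice favoured a lower level in suppressed cells, so that the direction here is no independent evidence. With totals made equal, 35 of 73 and 13 of 28 were lower in suppressed cells and 0 higher, with medians of −0.58 and −0.56. The mean level of the module was 2.27 at the median of suppressed cells (1.16 to 3.56), 2.95 in control-like cells (2.38 to 3.55) and 1.90 in untreated cells (1.20 to 2.88). Of the suppressed cells 18 of 25 lay above the untreated median, as did 28 of 28 control-like cells, and 5 and 18 lay above all untreated cells. ALDH2, an aldehyde dehydrogenase of the module, differed by −0.34, PTGR1, a prostaglandin reductase, by −0.74, and VAT1 by −1.46.

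Each state was also set beside the untreated cells. On the deposited scale 49 genes were higher and 3973 lower in suppressed cells than in untreated cells, and 305 and 1080 in control-like cells. With totals made equal the counts were 420 and 1099 in suppressed cells and 474 and 315 in control-like cells. Both comparisons share the 46 untreated cells. The untreated cells lay in block 4, while 13 suppressed and 9 control-like cells lay in block 2. Block was thus not held equal in these comparisons. In the 53 cells as 1 group, 316 genes were higher than in untreated cells at the same total, and 256 of these were within 1.5-fold between the states, with 40 lower and 20 higher in suppressed cells. Of the 544 genes lower than in untreated cells, 181 were lower in suppressed than in control-like cells and 6 higher. The last counts are not independent of the first, since suppressed cells are part of the 53.

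**Figure D5:**
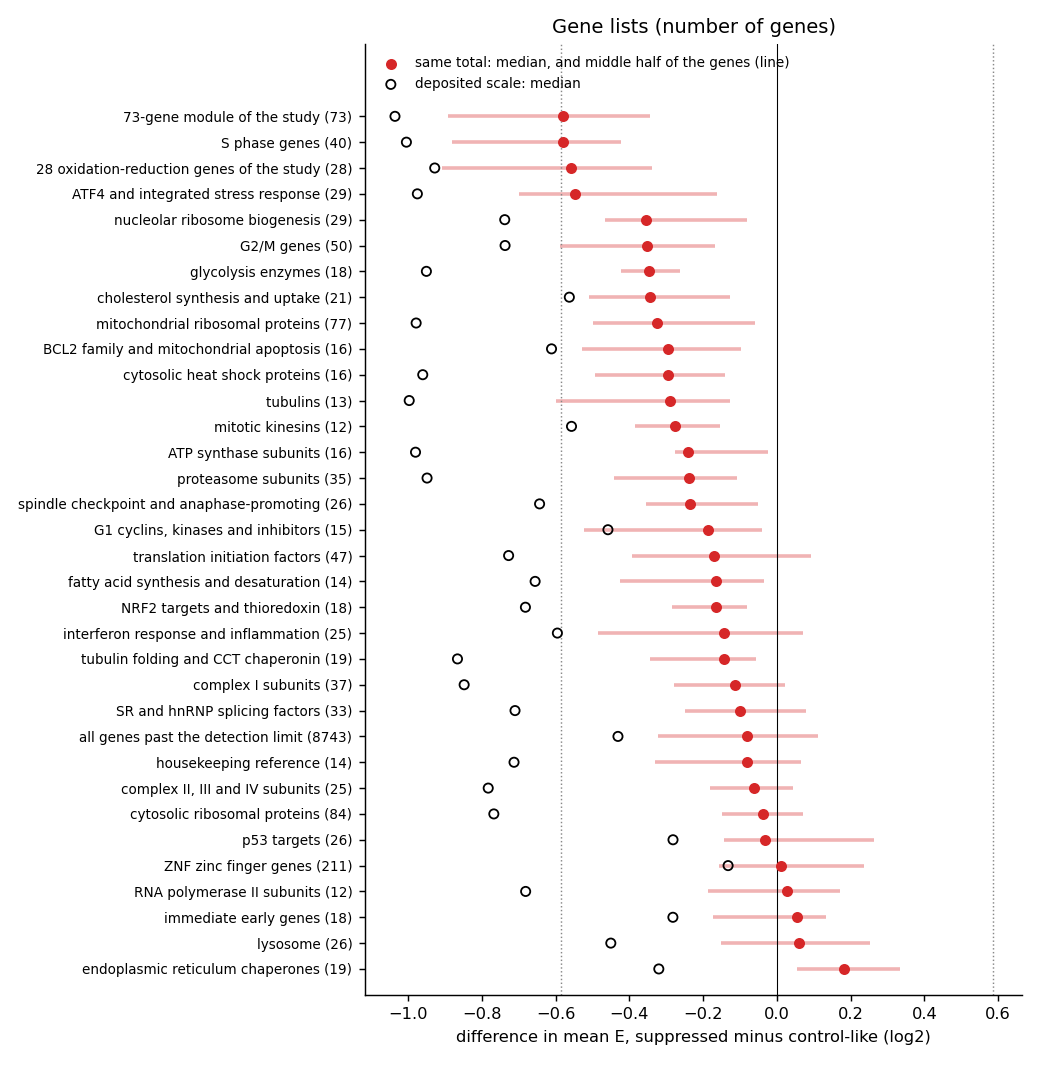
Median difference in mean E, suppressed minus control-like, for each gene list and for all genes tested, at the same total (filled, with a line from the lower to the upper quartile of the genes) and on the deposited scale (open). The S phase, G2/M, integrated stress response and module lists lie near −0.6 to −0.35 at the same total. Nucleolar (−0.36), glycolysis (−0.35) and cholesterol (−0.34) lists lie at the upper edge of that range. Mitotic kinesins (−0.28) and spindle checkpoint genes (−0.24) lie above it. Cytosolic ribosomal proteins (−0.04) and RNA polymerase II (0.03) lie near 0.

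The same split was made in the other conditions that hold both states, with all cells set to the same total as at 48 h. After 16 h in paclitaxel 972 of 8268 genes were lower (11.8%) and 137 higher (1.66%) in suppressed cells. After 2 h in celecoxib 743 of 8360 were lower (8.89%) and 112 higher (1.34%). The 16 h list of lower genes shared 241 genes with that of 48 h, which is 24.8% of the former and 29.6% of the 813 at 48 h among genes tested in both. The 2 h celecoxib list shared 192 lower genes, 25.8% of its own and 23.4% of the 821 at 48 h. Of higher genes 11 and 7 were shared, 6.51% and 4.02% of those at 48 h and 8.03% and 6.25% of the other lists. No cell is shared, but the states of all 3 conditions come from 1 classifier, so that shared genes are no independent evidence.

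S phase genes had medians at the same total of −0.58 at 48 h, −0.63 after paclitaxel for 16 h and −0.58 after celecoxib for 2 h, and G2/M genes −0.35, −0.73 and −0.53. CDK1 differed by −2.06, −2.29 and −1.26 in that order. The stress response list had −0.55, −0.43 and −0.23, and MTHFD2 −1.69, −0.93 and −0.15. The module of 73 genes had −0.58, −0.01 and −0.10. For the 4 genes low together, NTS differed by −2.43, −0.14 and −1.16, ANXA1 by −2.51, 0.40 and 0.46, SNCG by −2.28, 0.13 and −0.93, and S100A11 by −2.38, 0.56 and −2.83. CDK1, MTHFD2 and the 4 genes were named for large differences at 48 h, and the study chose the module on cells of 48 h. Smaller values in the other conditions may follow from that choice, and they do not show a difference particular to 48 h. The differences between conditions were not tested, since each condition is 1 sample.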

How the data were processed

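Single-cell RNA-seq libraries (Smart-seq2 on a Fluidigm C1) were made from A2780 cells, with no replicate cultures named. The authors used Trim Galore to trim reads and RSEM 1.3.0, with Bowtie2 as aligner, to estimate TPM. Their index joined the hg38 transcripts of GENCODE version 28 to the 3 spike-in RNAs. They normalized TPM to the spike-in, dropped cells in which housekeeping genes were poorly seen, and deposited log2 values, E = log2(N/10 + 1), for 9664 genes and 338 cells. The deposited log2 values keep no read counts, so that depth is unknown and doublets could not be called, which takes counts. Because 1 read has no fixed worth in TPM, no count test was possible.

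From the E-values N was recovered. The total is the sum of N per cell. For the same total, N was scaled to the median total of the 53 cells and E was computed again with the pseudocount of 10. Genes needed E above 0 in over 30% of the 53 cells. Without replicate cultures no p-value or SE was computed, and the SD given is over cells. Named genes were the 8 largest differences in each direction and on each scale among genes seen in 50% or more of the 53 cells, the 3 largest differences and the most abundant member of each of 38 lists, and the genes named by the study with CDKN1A, MKI67, TOP2A, ACTB and GAPDH. The members, lists and most alternatives were chosen with earlier results of these data known. PTGS1, PTGS2 and the spike-in RNAs were not analysed here. Some genes that the naming rule gives are not reported here. The difference of means at the same total and its limit were tested on cells simulated from the control-like cells. The other steps were not tested in this way. Positions of genes come from GENCODE version 44 (hg38), which matched 9643 of the 9664 identifiers, and promoters from RefSeq, which matched 7255 of the 8743 genes tested. Values were computed with pandas 2.3.3 and numpy 2.4.6 in Python 3.11.15, intervals with scipy 1.17.1, and plots with matplotlib 3.10.9.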

Additional observations from a re-analysis of the deposited data

Results flagged for a closer look

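AAMDC, named for its large difference at 48 h, differed in opposite directions past the 1.5-fold limit between conditions. It was among 24 such genes of the 8360 compared between 48 h of paclitaxel and 2 h of celecoxib. At the same total its mean E was 1.40 higher in suppressed than in control-like cells after 48 h in paclitaxel. After 2 h in celecoxib the difference was −0.74, and after 16 h in paclitaxel it was 0.93. The difference between the conditions was not tested, since each is 1 sample.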

How the results depend on the processing

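No paired analysis was possible because the result comes from no test and cells carry no pairing. Leaving out wells noted as 0 or debris left all values as they were, since none of the 53 cells had such a note. The difference in total between the states lay between −0.84 and −0.64 in the blocks of S-numbers and in all other settings except the shared range of totals, where 3 suppressed and 12 control-like cells gave 0.0483, as that range is built to do. That range gave 1591 genes lower and 1890 higher in deposited values, and 1610 and 1850 at the same total. Block 2 gave 70 higher in deposited values, and 1595 lower and 398 higher at the same total. Block 4 gave 143 higher in deposited values and 595 with equal totals. Without the 10 cells low in NTS, an alternative added after seeing the data, 52 and 325 were higher on the 2 scales. On the deposited scale a pseudocount of 1 gave 5401 lower and 182 higher, linear means 5015 and 333, detection in over 50% of cells 9 higher and the median of E 107 higher. At the same total a pseudocount of 1 gave 2845 lower and 637 higher, the median of E 1559 and 426, linear means 1616 higher, and the cells that detect the gene, added later, 256 and 923. The cause of these moves was not tested. Median-of-ratios factors gave 693 lower and 177 higher, and a total without the 50 most abundant genes 821 and 182. Leaving out 1 cell gave 783 to 900 lower and 161 to 204 higher at the same total, and 18 to 28 higher on the deposited scale. In the shared range 22 of the 86 named genes past the limit at the same total turned in sign, MTHFD2 (0.61) and FOS (−0.45) among them, against 1 in block 2 and 0 in block 4. NTS (0.13) turned without the cells low in it. Of 34 list medians 6 turned in sign in block 2, 3 in block 4 and 13 in the shared range.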
